A study of Homo sapiens with 6 samples.

Results

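The 50 transcript clusters described here measured chemoreceptor genes in HepG2 cells: 37 olfactory receptors of families 1 to 4 and 13 taste receptors. They were chosen by name among 12797 clusters annotated with exactly 1 gene symbol: an olfactory receptor symbol of family 1, 2, 3 or 4, or a *TAS1R* or *TAS2R* symbol, with pseudogene names ending in P left out. No expression value entered the choice. A transcript cluster is the unit of the exon array, a set of probes that is mostly annotated to 1 gene. Other clusters carry several symbols or none. All 50 carried the symbol of a protein-coding gene in RefSeq.

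HepG2 is an established human hepatoblastoma cell line. It was treated for 24 h with 10 µM atorvastatin, a statin that blocks HMG-CoA reductase (3 arrays), and was otherwise left without the drug (3 arrays). Cells of both groups were kept in medium whose fetal bovine serum had been replaced by human lipoprotein-deficient serum. Each array measured total RNA, and the 3 samples of a group came from triplicate wells, so the tests measure the spread between such wells.

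Olfactory receptors are G protein-coupled receptors that sit in the cilia of sensory neurons of the nose, where each mature neuron uses 1 receptor gene. TAS1R proteins pair up to sense sweet and umami compounds, and TAS2R proteins sense bitter compounds, in the taste cells of the tongue. The families are best known from these sensory tissues, and some members have been described in other cells, liver cells among them. The array background was not itself measured in the values used, so a low value places a receptor among the dim clusters and does not show that its mRNA was absent.

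The receptor clusters were dim. Their median level, as the mean log2 value of the 6 arrays, was 4.64 (range 2.22 to 6.66), against 6.75 for all clusters. No receptor exceeded the median of all clusters, and 45 of 50 lay under a log2 value of 6, where 35.8% of all clusters lay. The hepatocyte markers had much higher levels: 10 of 16 listed were measured, between 9.42 for *FGG* (a fibrinogen chain) and 12.26 for *APOB* (the apolipoprotein of VLDL and LDL), with *ALB* (albumin) at 11.85 and *AFP* (alpha-fetoprotein) at 11.11. Levels of different clusters come from different probes, so they place a cluster within the array and do not rank mRNA amounts.

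**Figure D1:**
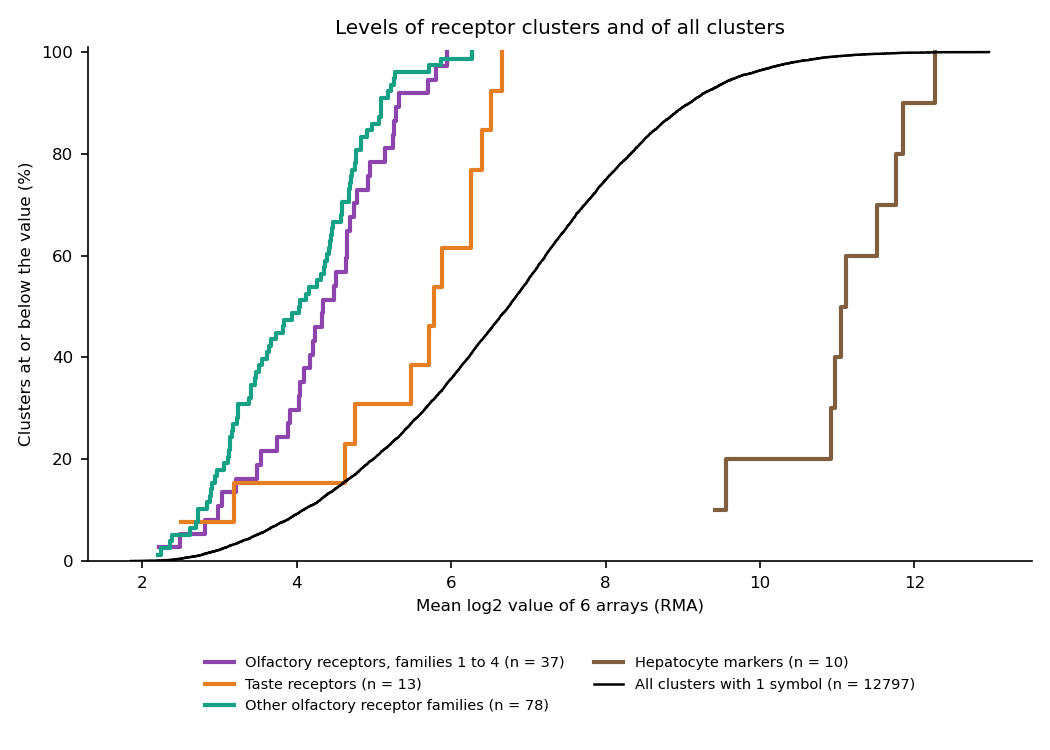
Cumulative share of clusters (%, y axis) at or below a mean log2 value over the 6 arrays (x axis), for olfactory receptors of families 1 to 4, taste receptors, other olfactory receptor families, hepatocyte markers and all clusters with 1 symbol. Both receptor curves reach 100% below a log2 value of 7, and the hepatocyte markers begin at 9.42.

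Olfactory receptors were the dimmer class. Their median level was 4.34, and all 37 lay under 6, with *OR1L8* highest at 5.94. By family the medians were 4.18 for family 1 (7 clusters), 4.64 for family 2 (15 clusters) and 4.03 for family 4 (15 clusters), and no cluster of family 3 passed the choice. The 78 clusters of the other olfactory receptor families, which the choice did not include, had a median of 4.03, and 77 of them lay under 6.

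Taste receptors had a median of 5.78, and all 5 receptors at or above 6 were among them. These were *TAS1R1*, a subunit of the umami receptor, and the bitter receptors *TAS2R50*, *TAS2R3*, *TAS2R4* and *TAS2R14*. *TAS2R14*, which responds to many unrelated bitter compounds, had the highest mean of all members: 6.83, 6.40 and 6.56 on the atorvastatin arrays, against 6.96, 6.47 and 6.71 on the control arrays. The groups overlapped, and 48.4% of all clusters were dimmer. At the low end, *TAS2R8* had 2.72, 2.56 and 2.10 with atorvastatin and 2.54, 2.35 and 2.77 in control, so the bitter receptors spanned nearly the whole range of the members. Of the olfactory receptors, *OR4A15*, *OR4C3* and *OR2B3* were the lowest, with mean levels of 2.22, 2.49 and 2.82.

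The genes differed in what surrounds them. In RefSeq, 18 of the 50 genes overlapped the span of another annotated gene, on either strand, and their median level was 5.20, against 4.41 for the 32 that overlapped none. The 18 held 6 taste receptors, the brighter class, and the 32 held 7, and levels were not compared within a class. Some overlaps were with other receptor genes, such as that of *OR2AK2* with *OR2L13*. *TAS2R13*, *TAS2R14*, *TAS2R31* and *TAS2R50*, a run of bitter receptors on chromosome 12, lie within the span of *PRH1*, a salivary proline-rich protein gene. Of the 5 receptors at or above 6, 3 were in the overlapping group and 2 in the other. Whether transcripts of overlapping genes added to the values was not tested.

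Partners of the receptors gave a mixed picture. Of 23 listed olfactory signalling and chaperone genes, 17 were measured, with a median level of 5.39. *CNGA2*, a subunit of the cyclic nucleotide-gated channel of olfactory neurons, lay at 4.83, *RTP1*, a chaperone that brings the receptors to the membrane, at 5.68, and *GNAL*, the G protein subunit they signal through, at 6.11. *GNB1* (11.33) and *LDB1* (9.20), which many cell types use, were the brightest of that list. Of 17 taste signalling genes, 12 were measured, with a median of 5.64. *PLCB2*, the phospholipase of taste cells, lay at 5.22 and *TRPM5*, their cation channel, at 6.38. *ITPR3*, the inositol trisphosphate receptor found in taste cells and in other epithelia, lay at 9.05.

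Atorvastatin did not move the receptors past the threshold of the test. In limma with replicate number as a block, 0 of 50 members and 0 of 12797 clusters (0%) had a Benjamini-Hochberg adjusted p under 0.05, and the adjusted p of every member was 1. At an unadjusted p under 0.05 there were 3 members, *OR2AE1*, *TAS2R31* and *OR4C11*, all lower with atorvastatin, against 0.992% of all clusters. The share was 0.991% of the other clusters with a mean under 6. The count was 1 of 78 clusters of other olfactory receptor families and 1 of 35 clusters of other families seldom used in liver. Without the block there were 2 members, *OR2AE1* and *TAS2R31*, against 2.12% of all clusters, and the smallest adjusted p was 0.375. The count at an unadjusted p under 0.05 was 15 without replicate 1 of both groups (7.98% of all clusters) and 11 without replicate 3 (3.34%), and, with no block, 7 without control array 1 (7.34% of all clusters) and 5 without atorvastatin array 1 (2.56%). The median difference, atorvastatin minus control, was 0.03 for the members and 0.01 for all clusters on the log2 scale, with 29 members higher and 21 lower. In RNA of whole cultures, fewer cells that carry a transcript and less of it per cell cannot be told apart.

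**Figure D2:**
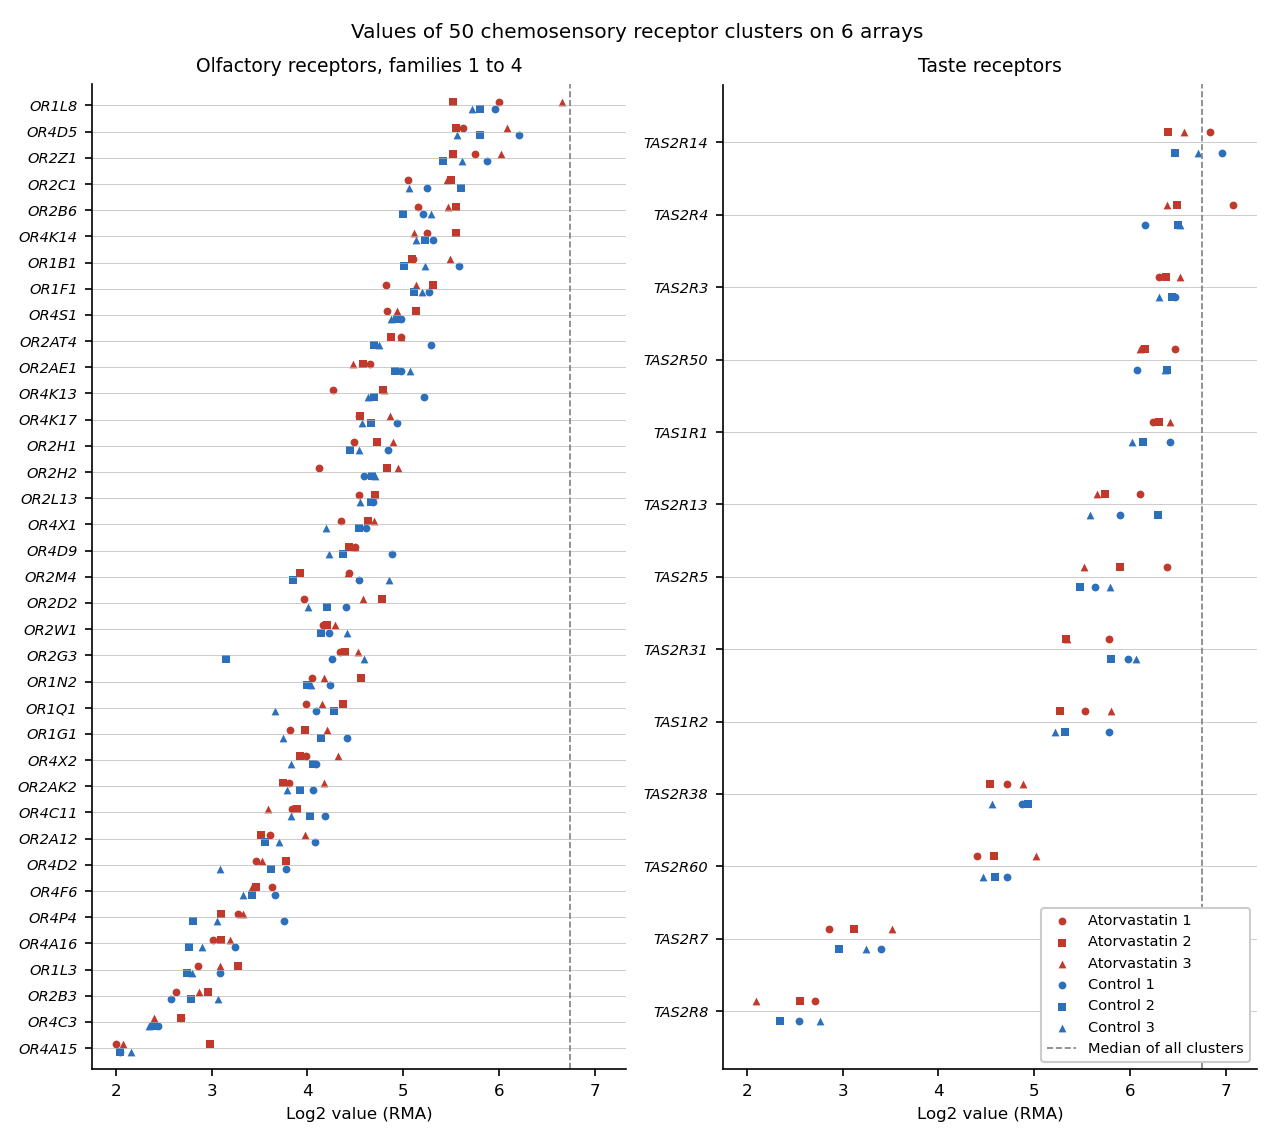
Log2 values (RMA, x axis) of all 50 receptor clusters, 1 row a gene, on the 3 atorvastatin arrays (red, upper points of a row) and the 3 control arrays (blue, lower points), with marker shape for the replicate number; the dashed line is the median of all clusters, 6.75. The groups stand apart for *OR2AE1* and *TAS2R31* and overlap for the other 48.

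*OR2AE1*, an olfactory receptor gene on chromosome 7, had the smallest p of all members. Its log2 values were 4.65, 4.58 and 4.47 on the atorvastatin arrays, against 4.97, 4.92 and 5.07 on the control arrays. Every atorvastatin array lay below every control array, and the means were 4.57 ± 0.09 with atorvastatin and 4.99 ± 0.08 in control (SD, n = 3 each). The difference was -0.42 (95% confidence interval -0.66 to -0.17), a fold change of -1.33, with an unadjusted p of 0.00581 in limma. Its unadjusted p was under 0.05 in 17 of 17 alternative analyses, and its adjusted p was 0.26 to 1 in them. The direction was the same in all, but with groups that did not overlap, leaving out arrays could not turn it.

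*TAS2R31*, a bitter receptor that responds to saccharin, had the largest decrease. It belongs to a group of bitter receptor genes of closely similar sequence, and whether its probes also read those relatives was not tested. Its values were 5.78, 5.34 and 5.34 with atorvastatin, against 5.98, 5.80 and 6.06 in control. The highest atorvastatin array, array 1, lay just below the lowest control array, array 2, so the groups barely stood apart. The difference was -0.46 (95% confidence interval -0.75 to -0.17), a fold change of -1.38, with an unadjusted p of 0.00782 in limma. The direction held in 17 of 17 alternatives, but leaving out arrays could not turn it, since the groups did not overlap. An unadjusted p under 0.05 held in 16, the exception being the methods' t-test, with adjusted p between 0.0569 and 1.

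*OR4C11*, an olfactory receptor on chromosome 11, had 3.84, 3.89 and 3.59 with atorvastatin and 4.18, 4.03 and 3.83 in control. The groups overlapped, and the difference was -0.24 (95% confidence interval -0.47 to -0.01), with an unadjusted p of 0.0431 in limma. Its unadjusted p stayed under 0.05 in 5 of 17 alternatives.

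*OR2AE1* and *TAS2R31* were the 2 of 50 members whose groups did not overlap, against 7.25% of all clusters. Both were lower with atorvastatin, as were 2.68% of all clusters, and no member had all its atorvastatin arrays above all its control arrays. Among the other clusters with a mean under 6, 3.86% had groups that did not overlap, against 4.44% of members under 6. With 2 arrays a group, 20 members did not overlap without replicate 1 (49.8% of all clusters), 5 without replicate 2 (19.3%) and 15 without replicate 3 (29.6%). With all arrays the share of receptors with separated groups lay near that of clusters of like brightness. A comparison of 3 arrays with 3 by an exact permutation test cannot give a 2-sided p below 0.1 for a single cluster.

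For *OR2AE1*, the member with the smallest p, and *TAS2R14*, the member with the highest level, the 250 bases before the RefSeq start are shown. The windows run 5′ to 3′ on the gene's own strand. Both come from RefSeq on GRCh38.p14, a later build than the hg18 of the processing notes, and lie on the minus strand, at chr7:99877034-99877283 for *OR2AE1* and at chr12:10939264-10939513 for *TAS2R14*. Capitals mark the letters TAATTA, the core that many homeodomain factors bind.
OR2AE1: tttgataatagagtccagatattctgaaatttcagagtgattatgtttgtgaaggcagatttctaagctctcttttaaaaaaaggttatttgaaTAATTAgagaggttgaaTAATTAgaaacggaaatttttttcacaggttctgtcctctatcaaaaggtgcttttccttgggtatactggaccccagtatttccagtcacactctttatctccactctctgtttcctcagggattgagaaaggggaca
TAS2R14: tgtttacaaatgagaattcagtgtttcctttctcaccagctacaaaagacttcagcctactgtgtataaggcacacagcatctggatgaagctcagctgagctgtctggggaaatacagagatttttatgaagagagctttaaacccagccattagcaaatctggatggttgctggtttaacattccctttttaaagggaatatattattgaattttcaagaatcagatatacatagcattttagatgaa
The *OR2AE1* window held TAATTA at 156 and at 139 bases before the start and was 36.0% GC. Its annotated start was itself an ATG, and whether the window is a promoter was not tested. The *TAS2R14* window was 36.8% GC and held none of the letters searched.

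Of the 50 members, 37 had such a window, with *TAS2R31* not among them. GC ranged from 23.2% to 65.6% in these windows, with *OR2L13* highest. Their median GC was 38.4%, against 63.2% for 10181 tested genes with a window, and their median number of CpG dinucleotides was 1, against 19. Only *OR1F1* and *OR2L13* of the 37 held at least 10 CpG (5.41%), against 73.0% of all windows. TAATTA was found in 7 members (18.9%, against 2.76% of all windows) and TATAAA, the letters of a TATA box, in 8 (21.6%, against 7.61%), both searched on either strand. CCCNNGGG, the core bound by EBF factors of olfactory neurons, was in none of the 37, against 20.4% of all windows and 0 of 8 hepatocyte markers. In 12 members (32.4%, against 1.58%), *OR2AE1* among them, the annotated start was itself an ATG. The 62 windows of other olfactory receptor families were of the same kind, with a median GC of 36.4%, TAATTA in 29.0%, TATAAA in 33.9%, CCCNNGGG in 9.68% and an ATG start in 51.6%. These matches describe the letters in the windows and are not binding sites, and the CpG-poor composition was also seen in 8 hepatocyte markers, with a median GC of 39.2% and a median of 2 CpG. In those 8 windows TAATTA and TATAAA were each found in 1 (12.5%). TAATTA and TATAAA hold only A and T, and CCCNNGGG is rich in G and C. The shares were not compared at like GC, so whether they follow base composition was not tested.

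The size of the differences was larger among receptors than among all clusters. The median absolute difference was 0.0964 on the log2 scale for members and 0.0512 for all clusters, and 95% of the absolute differences were under 0.363 for members and 0.175 for all clusters. A change of at least 1.2-fold was found in 5 of 50 members (10.0%), against 1.23% of all clusters and 1.70% of the other clusters with a mean under 6. Families most like the members lay closer to them: the share was 6.41% of the 78 clusters of other olfactory receptor families and 11.4% of 35 clusters of other families seldom used in liver, such as hair keratin-associated proteins and trace amine receptors. The 5 were *OR2G3*, *TAS2R5* and *OR4A15*, higher with atorvastatin, and *OR2AE1* and *TAS2R31*, lower. None reached 1.5-fold. With 1 replicate of both groups left out the count was 18 without replicate 1 (8.32% of all clusters), 7 without replicate 2 (2.59%) and 10 without replicate 3 (3.24%).

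**Figure D3:**
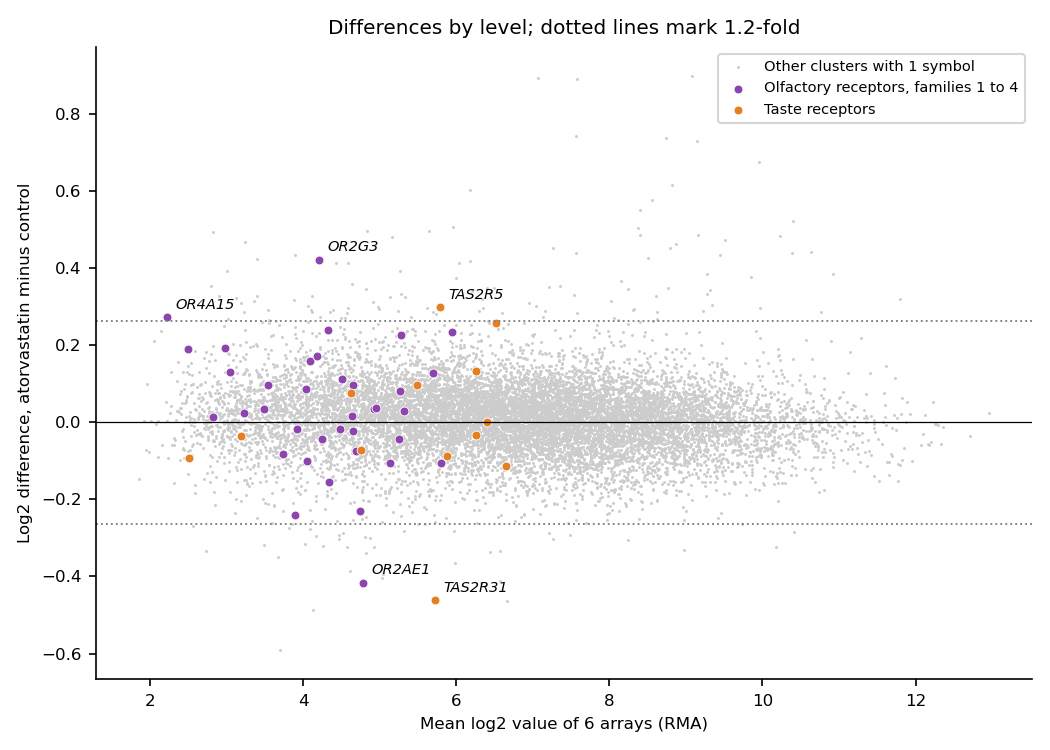
Log2 difference, atorvastatin minus control (y axis), against the mean log2 value of the 6 arrays (x axis), with other clusters in grey, olfactory receptors in purple and taste receptors in orange; dotted lines mark 1.2-fold. The receptors lie at the dim end, between -0.46 and 0.42.

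The 3 receptors with the largest increases each rested on 1 array or on arrays that disagreed. *OR2G3*, an olfactory receptor on chromosome 1, had 4.34, 4.39 and 4.53 with atorvastatin, against 4.25, 3.16 and 4.59 in control. Control array 2 alone was low, and the difference of 0.42 had a 95% confidence interval of -0.16 to 1.01 and the largest spread of all members (pooled SD 0.54). *OR4A15*, the dimmest member, had 2.01, 2.98 and 2.07 with atorvastatin, against 2.04, 2.04 and 2.16 in control. Atorvastatin array 2 alone was high, and the difference was 0.27. *TAS2R5*, a bitter receptor on chromosome 7, had 6.39, 5.89 and 5.51 with atorvastatin, against 5.64, 5.48 and 5.79 in control, a difference of 0.30 with groups that overlapped.

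*TAS2R4*, a bitter receptor that neighbours *TAS2R5*, had 7.07, 6.49 and 6.38 with atorvastatin, against 6.15, 6.50 and 6.52 in control, a difference of 0.26. Both genes were highest on atorvastatin array 1. *TAS2R3*, the third gene of that run, had 6.30, 6.38 and 6.52 with atorvastatin and 6.46, 6.43 and 6.30 in control, and did not share the high value. Its group means, 6.40 with atorvastatin and 6.40 in control, differed by less than 0.01.

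Other olfactory receptors among the largest differences showed the same mixture of high and low arrays. *OR1L8* had 5.999, 5.52 and 6.66 with atorvastatin, against 5.96, 5.80 and 5.72 in control: atorvastatin held both its highest and its lowest array. *OR2D2* had 3.96, 4.78 and 4.58 with atorvastatin and 4.40, 4.20 and 4.003 in control, again with the lowest value of all 6 arrays in the group with the higher mean. *OR2B6* had 5.16, 5.55 and 5.47 with atorvastatin, against 5.21, 4.99 and 5.29 in control, a difference of 0.23 (95% confidence interval -0.09 to 0.55) in which only atorvastatin array 1 fell within the control values. *OR4K13* had 4.27, 4.79 and 4.80 with atorvastatin, against 5.22, 4.70 and 4.63 in control, a difference of -0.23. *OR2M4* had 4.43, 3.92 and 4.42 with atorvastatin, against 4.54, 3.85 and 4.85 in control, a difference of -0.16 in which array 2 was the lowest in both groups.

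The taste receptors of the TAS1R class showed no separation. *TAS1R1* had 6.24, 6.30 and 6.42 with atorvastatin, against 6.42, 6.13 and 6.02 in control, a difference of 0.13 (95% confidence interval -0.18 to 0.45). *TAS1R2*, the sweet receptor subunit, had 5.53, 5.27 and 5.80 with atorvastatin, against 5.78, 5.32 and 5.21 in control, a difference of 0.10 (95% confidence interval -0.30 to 0.49). *TAS2R50* differed by -0.03 and *TAS2R14* by -0.11, both with groups that overlapped.

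The signalling partners differed less than the receptors. Their median absolute difference was 0.0360 for the olfactory and 0.0471 for the taste partners, against 0.0964 for the members and 0.0512 for all clusters. The partners were also brighter, with median levels of 5.39 and 5.64 against 4.64 for the members. Their median SD within groups (pooled SD) was smaller, 0.135 and 0.167 against 0.235. None of the partners changed at least 1.2-fold, and no test set them against the members. Of the 17 olfactory partners, 12 were higher and 5 lower, none had an unadjusted p under 0.05 in limma, and the groups of *GNAL* alone did not overlap (difference 0.06). Of the 12 taste partners, 8 were higher and 4 lower, none had an unadjusted p under 0.05, and *ITPR3* alone had separated groups, with 9.10 ± 0.01 with atorvastatin and 8.99 ± 0.04 in control (SD, n = 3 each). Cholesterol synthesis genes, which statins are known to induce, give the scale of a drug response on the same arrays. Of 20 listed, 14 were measured: 13 had all atorvastatin arrays above all control arrays, 11 changed at least 1.2-fold, all higher with atorvastatin, and the median difference was 0.45. None of the 14 passed the adjusted threshold in limma with the block, 11 had an unadjusted p under 0.05, and 2 passed the adjusted threshold without the block, where 4 of all clusters passed. Over all clusters, 7.25% had separated groups, 1.23% changed at least 1.2-fold and 0.992% had an unadjusted p under 0.05 in limma with the block.

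The spread between arrays of a group was also larger for receptors. The pooled SD had a median of 0.235 on the log2 scale (range 0.0843 for *OR2L13* to 0.535 for *OR2G3*), against 0.112 for all clusters and 0.146 for the other clusters under 6. It was 0.199 for the other olfactory receptor families and 0.203 for the other families seldom used in liver, and no test set these against the members. The difference exceeded its own standard error from that spread in 10 of 50 members (20.0%), against 28.3% of all clusters. The receptors had the larger spread in each bin of level compared with all other clusters: among clusters with a mean between 4 and 5 the median pooled SD was 0.224 for 20 members and 0.149 for 1373 others, and between 5 and 6 it was 0.261 for 12 members and 0.154 for 1996 others. The number of probes behind each cluster was not tested.

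**Figure D4:**
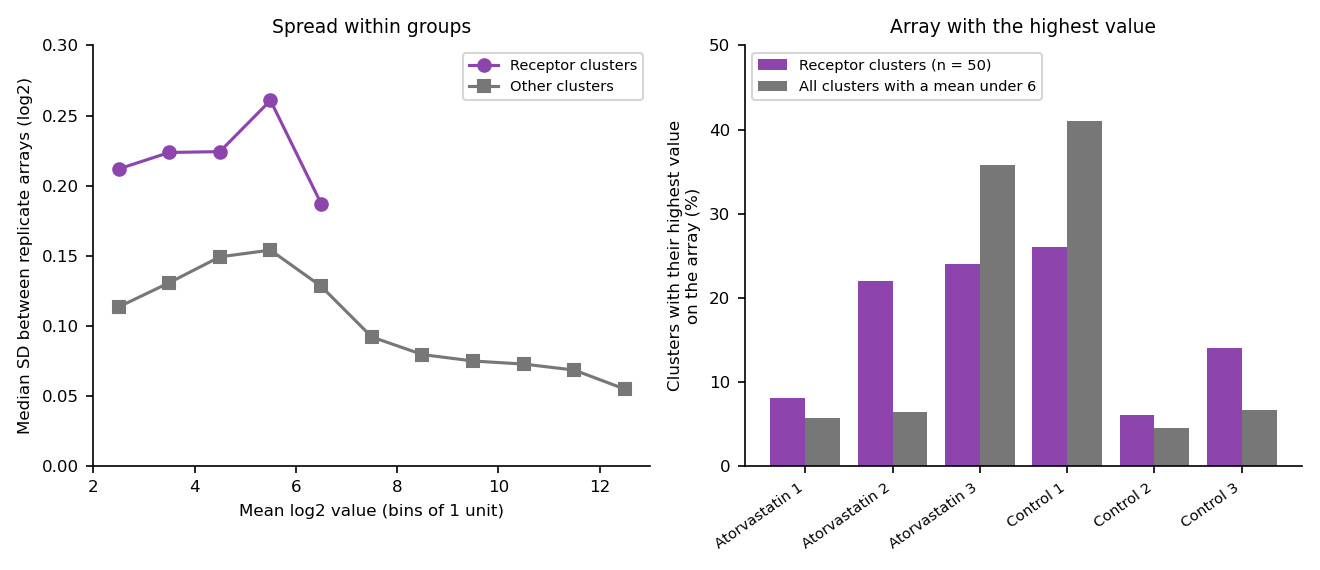
Left, median pooled SD between replicate arrays (log2 units) of receptor clusters and of other clusters in bins of mean log2 value. Right, share (%) of the 50 receptors and of all clusters with a mean under 6 whose highest value fell on each of the 3 atorvastatin and 3 control arrays; receptors have the larger SD in each shared bin, and control array 1 holds the highest value of 41.0% of dim clusters.

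The arrays also differed by as much within a group as between groups. Over the 6 pairs of arrays of the same group the median absolute difference of the members averaged 0.232 (range 0.155 to 0.296), and over the 9 pairs of different groups it averaged 0.212 (range 0.138 to 0.286). The median value of the members was 4.46, 4.61 and 4.75 on the atorvastatin arrays and 4.78, 4.63 and 4.56 on the control arrays. Atorvastatin array 3 and control array 1 were thus the highest of their groups, and the groups overlapped. The same 2 arrays stood apart for dim clusters in general: of all clusters under 6, 35.8% had their highest value on atorvastatin array 3 and 41.0% on control array 1, and between 4.52% and 6.63% on each of the other 4 arrays. The 50 receptors singled out these arrays less: 12 were highest on atorvastatin array 3 and 13 on control array 1. Of the rest, 4 were highest on atorvastatin array 1, 11 on atorvastatin array 2, 3 on control array 2 and 7 on control array 3.

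Leaving replicates out turned the common direction of the receptors. Without replicate 1 of both groups, 38 members were higher and 12 lower with atorvastatin, with a median difference of 0.15. Without replicate 3 of both groups, 16 were higher and 34 lower, with a median of -0.08. With control array 1 alone left out the median was 0.12, and with atorvastatin array 3 alone left out it was -0.02, both without the block. The other clusters under 6 moved alike, with medians of 0.12 without replicate 1 and -0.07 without replicate 3. With control array 1 and atorvastatin array 3 both left out, an analysis chosen after seeing the data, 28 were higher and 22 lower and the median was 0.02.

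**Figure D5:**
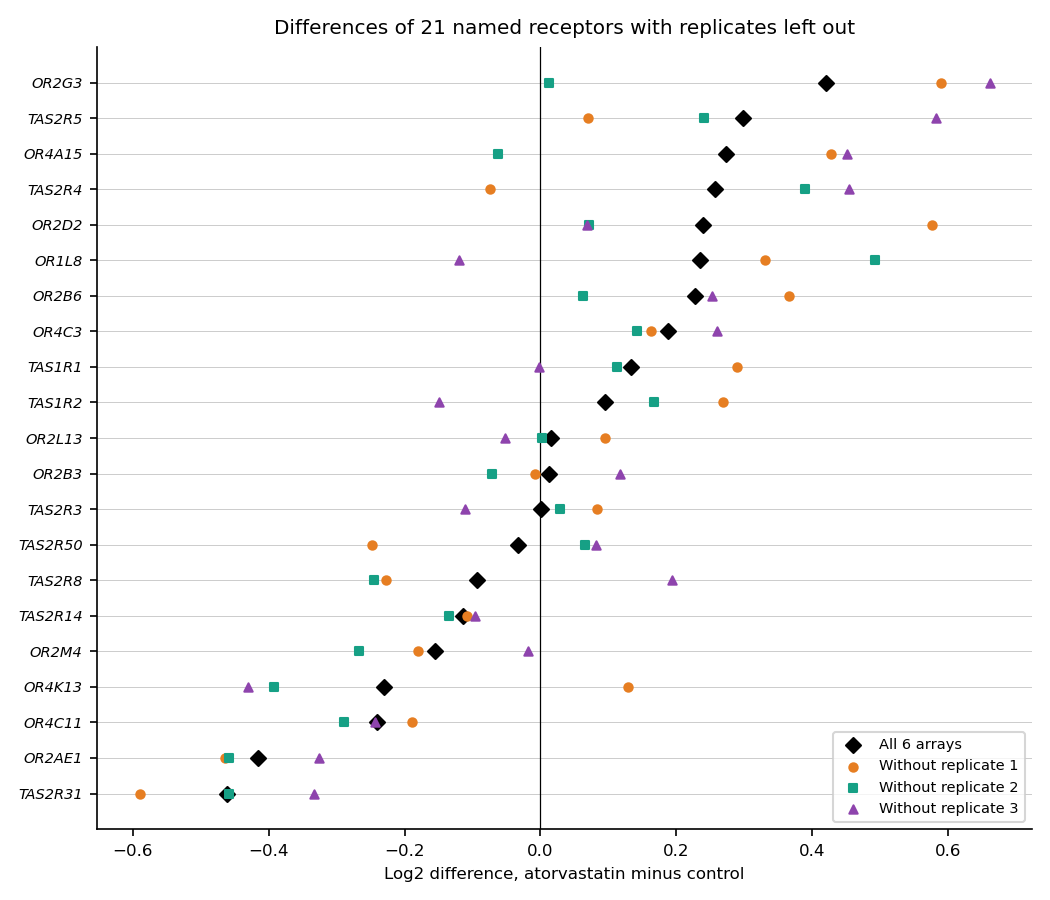
Log2 difference, atorvastatin minus control (x axis), of the 21 named receptors (rows) with all 6 arrays and without replicate 1, 2 or 3 of both groups. *OR2AE1* and *TAS2R31* stay below 0 in each, which groups that do not overlap must do when arrays are left out. *OR2G3* lies at 0.42 with all arrays and at 0.66 without replicate 3.

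Single receptors followed the arrays that remained. Without replicate 3, *OR2G3* (difference 0.66, adjusted p = 0.000754) and *TAS2R5* (difference 0.58, adjusted p = 0.0082) passed the threshold in limma, as did 32 of 12797 clusters in all, and no other alternative gave a member that passed. The difference of *OR2G3* was 0.01 without replicate 2, and that of *TAS2R5* was 0.07 without replicate 1. In the fits without replicate 2 and without replicate 3 limma assigned the same variance to every cluster. The p of a receptor there followed the size of its difference alone. Of the 21 receptors chosen by rule for naming, 14 had the opposite direction in at least 1 of the alternatives run on them. The other 7 kept their direction in all: *OR2AE1*, *TAS2R31*, *OR4C11*, *OR2B6*, *OR2D2*, *OR4C3* and *TAS2R5*. For *OR2AE1* and *TAS2R31*, whose groups did not overlap, leaving out arrays could not turn it.

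The precision of these arrays set what could be seen. The 95% confidence interval of a receptor's difference reached a median of 0.352 on the log2 scale to either side, a 1.28-fold change, against 0.257 for all clusters. The interval lay within 1.5-fold of no change in 40 of 50 members (80.0%), against 98.1% of all clusters, and within 2-fold in 49, *OR2G3* being the exception.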

How the data were processed

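Total RNA of 6 HepG2 samples (3 atorvastatin, 3 control) was hybridised to Affymetrix human exon arrays. From the scanner files the authors made RMA values in Partek Genomics Suite, restricted to the core meta-probes, and took the mean of the core probe sets belonging to a gene; versions are not given in the sources used here, and the processing notes name hg18. The authors deposited 1 log2 value per cluster and array, and these lay between 1.48 and 13.05. Of 16634 clusters, 12797 with 1 symbol were tested, 1934 had several symbols and 1903 none. No filter on dim clusters was used.

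Values were compared with limma 3.58.1 (lmFit, eBayes; R 4.3.3). A block for replicate number was kept because the methods name a paired test. This left 2 residual and 4.58 prior degrees of freedom. Benjamini-Hochberg adjustment ran over all clusters tested. The confidence intervals come from this fit, and pooled SDs from the 3 arrays of each group. The step was tested on simulated data with independent errors for each cluster and array. Those data held no deviation shared by the clusters of an array. Summaries used Python 3.11.15 with numpy 2.4.6 and pandas 2.3.3, and figures matplotlib 3.10.9. Gene spans and the windows before gene starts came from RefSeq (GRCh38.p14), matched by Entrez ID and symbol. Protein sequences were not analysed here.

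The symbol rule for members used no expression value, but it and the lists were written with earlier results of these data known. Named members were the 6 highest and 4 lowest levels, the 6 largest changes and the 3 smallest p each way, the smallest and largest SD, and every TAS1R; list genes were named after their values were seen, beside those with the highest mean and the smallest p.

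Alternatives were no block, a trended and robust variance, a dim filter, array centring, quantile normalization again, every cluster, 1 cluster per gene, clusters shared by members, the methods' t-test, and leaving out replicates or single arrays.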

Additional observations from a re-analysis of the deposited data

How the results depend on the processing

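Counts of members with an unadjusted p under 0.05 were 3 in the main analysis (0.992% of all clusters) and 2 without the replicate block (2.12%). They were 2 under the methods' t-test (2.47%, *OR2AE1* and *TAS2R14*) and 2 with trended, robust variances (1.41%). With centring (1.12%), every cluster (1.49%) or 1 cluster per gene (0.970%) they were 3. In each, 0 members passed the adjusted threshold, where 4 of all clusters passed without the block, 21 with trended, robust variances and 0 in the others. Same-numbered samples did not deviate together (correlations of -0.46, 0.07 and -0.56 over all clusters), so the block reflects the methods and not a pairing seen in the data. A second quantile normalization gave 3 members without overlap (8.92% of all clusters) and 4 past 1.2-fold (1.18%). Requiring a mean log2 value of at least 6 left 5 members, with a median level of 6.40, 0 without overlap, 0 past 1.2-fold and 0 with an unadjusted p under 0.05, since it removed 45 of 50. Leaving out a replicate of both groups or a single array gave 0 to 2 members past the adjusted threshold, 3 to 15 with an unadjusted p under 0.05, 3 to 20 without overlap, 6 to 18 past 1.2-fold, a median level of 4.60 to 4.68, a median difference of -0.08 to 0.15 and a median absolute difference of 0.0712 to 0.195. With single arrays left out and no block, 10 members did not overlap without control replicate 1 (28.2% of all clusters) and 8 without atorvastatin replicate 1 (16.3%). Those past 1.2-fold were 10 without control replicate 1 (3.74%), control replicate 3 (1.65%) or atorvastatin replicate 1 (2.38%), 8 without atorvastatin replicate 2 (2.02%) and 9 without atorvastatin replicate 3 (1.55%). With 2 arrays a group the groups of many clusters did not overlap: 49.8% of all clusters without replicate 1, 19.3% without replicate 2 and 29.6% without replicate 3. Leaving out control replicate 1 and atorvastatin replicate 3 was chosen after seeing the data and run without the block. There, 7 members had an unadjusted p under 0.05 (4.24% of all clusters), 14 did not overlap (34.6%) and 11 passed 1.2-fold (2.24%). Adding the 5 clusters shared by members alone gave a median level of 4.65 and a median difference of 0.02 over 55 clusters. The 3 arrays a group limit the precision, and how far signals lay above background is not in the values used.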

Other observations

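The 8 clusters annotated with a receptor symbol beside other symbols were not among the members. Their levels lay between 2.91 for the cluster of *OR1J2* and *OR1J4* and 5.73 for that of *TRIM58*, *OR2W3* and *OR2AJ1*, all under 6, and the groups overlapped in all 8. The cluster of *PRH1*, *PRR4* and *TAS2R14* had 5.97, 6.11 and 4.35 on the atorvastatin arrays, against 5.78, 5.70 and 6.16 on the control arrays, with atorvastatin array 3 far below the rest and a difference of -0.40. The cluster of 4 receptors *OR2M2*, *OR2M3*, *OR2M5* and *OR2M7* had 3.33, 3.27 and 4.35 with atorvastatin, against 2.85, 3.76 and 4.15 in control.

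Other gene families seldom used in liver were not uniformly dim. Of 35 such clusters, 24 lay under 6, with a median of 5.08, and the brightest, *KRTAP3-1* (a hair keratin-associated protein), lay at 9.49. The 6 clusters of trace amine and vomeronasal receptors, part of the same list, all lay under 6, with a median of 3.86.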
